A study of Mus musculus with 9 samples.

Results

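The 10 genes Klf3, Klf6, Klf7, Klf8, Klf9, Klf10, Klf12, Klf13, Klf15 and Klf16 encode Krüppel-like factors (KLFs) other than KLF2, KLF4 and KLF5. They were taken by gene symbol, from a list chosen with earlier results of these data known. The KLF genes Klf1, Klf11, Klf14 and Klf17 are not in the set. The members make up 10 of the 52550 genes in the count table. Of these, 9 passed the filter on low counts and stood among the 11893 genes tested. Klf12 did not pass. Each of the 9 had at least 43 reads in every library, so none passed through 1 group alone.

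The study measured transcripts in V6.5 cells, a mouse embryonic stem cell (ESC) line, by sequencing the 3' ends of polyadenylated RNA. There were 5 libraries labelled as a double knockout of KLF2 and KLF4 (DKO) and 4 labelled wild type (WT). All cells received LIF and 2 inhibitors, of GSK and of MEK (together 2i), in Knockout DMEM with 15% FBS, antibiotics, glutamine and amino acids. The labels give neither the deleted parts of the genes nor the number of clones, and do not say that replicates were separate cultures, so p-values reflect the spread among these libraries alone, and that spread may be technical.

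KLFs bind CACCC-type and GC-rich DNA through 3 zinc fingers near the C terminus, and differ mainly in their N-terminal regions. KLF3, KLF8 and KLF12 carry a motif that recruits the CtBP corepressors, while KLF9, KLF10, KLF13 and KLF16 recruit the SIN3 corepressor, and KLF6, KLF7 and KLF15 are best known as activators. KLF2, KLF4 and KLF5 are the family members known for holding mouse ESCs in naive pluripotency.

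Promoter sequences are shown for the members whose transcripts fell or rose most clearly, because KLF genes are known in other cells to be bound by KLFs. RefSeq windows on GRCm38.p6, running from 250 bases before to 50 bases after an annotated start, were found for 8 members in 9 windows. In the sequences, capitals mark CACCC or, on the other strand, GGGTG. The windows are Klf3 at chr5:64803271-64803570, the upstream and the downstream Klf8 start at chrX:153237498-153237797 and chrX:153359363-153359662, and Klf6 at chr13:5861239-5861538, all on the plus strand.
Klf3: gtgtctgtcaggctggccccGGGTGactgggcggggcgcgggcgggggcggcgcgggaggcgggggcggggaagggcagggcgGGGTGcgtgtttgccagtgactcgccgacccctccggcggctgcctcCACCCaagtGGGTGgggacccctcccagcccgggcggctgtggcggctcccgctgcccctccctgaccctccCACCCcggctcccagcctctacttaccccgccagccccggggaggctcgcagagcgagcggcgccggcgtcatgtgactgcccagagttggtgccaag
Klf8, upstream start: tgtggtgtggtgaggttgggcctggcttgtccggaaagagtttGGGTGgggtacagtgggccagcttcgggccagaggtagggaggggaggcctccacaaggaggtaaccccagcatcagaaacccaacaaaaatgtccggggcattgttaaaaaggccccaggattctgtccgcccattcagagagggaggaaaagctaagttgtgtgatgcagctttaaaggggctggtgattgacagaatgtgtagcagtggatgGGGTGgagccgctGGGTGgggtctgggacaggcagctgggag
Klf8, downstream start: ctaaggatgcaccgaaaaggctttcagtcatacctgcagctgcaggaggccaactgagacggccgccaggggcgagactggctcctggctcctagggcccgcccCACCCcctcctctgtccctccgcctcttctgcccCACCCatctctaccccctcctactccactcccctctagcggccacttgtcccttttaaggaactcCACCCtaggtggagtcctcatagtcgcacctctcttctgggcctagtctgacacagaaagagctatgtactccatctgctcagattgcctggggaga
Klf6: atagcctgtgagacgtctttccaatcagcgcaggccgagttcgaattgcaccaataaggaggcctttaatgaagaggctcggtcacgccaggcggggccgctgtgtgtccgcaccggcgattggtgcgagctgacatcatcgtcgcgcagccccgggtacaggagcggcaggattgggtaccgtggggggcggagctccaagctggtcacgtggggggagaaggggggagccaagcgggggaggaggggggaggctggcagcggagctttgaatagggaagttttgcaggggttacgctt
The Klf3 window held 5 matches, each Klf8 window 3 and the Klf6 window 0. Of the windows not printed, that of Klf7 held 3, and those of Klf9, Klf12, Klf13 and Klf15 held 1 each. No window was found for Klf10 and Klf16. Whether the number of matches goes with the direction of change was not tested. The Klf3 window also held 6 matches to GGGCGG or its complement, 1 of which overlapped a CACCC match, in a sequence of 76.7% G and C. Of the 9 windows, 8 held at least 1 CACCC match, against 57.5% of all 32851 RefSeq promoter windows and 63.1% of the 11467 windows of tested genes. At least 3 matches stood in 44.4% of the 9 windows, against 9.35% of all windows and 10.7% of those of tested genes. These were the windows of Klf3 and Klf7 and both of Klf8, so Klf8 was counted more than once. GC content ran from 45.7% to 76.7% over the 9 windows and was not matched in these shares, and a match of these letters is not a measured binding site.

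Reads of the genes named in the genotype were higher in libraries labelled DKO. Klf2 averaged 613.3 ± 18.9 CPM in libraries labelled DKO and 458.1 ± 9.82 in WT libraries, and Klf4 1590 ± 140.0 and 845.5 ± 48.9 (SD, n = 5 and 4). The log2 fold change of Klf2 was 0.42, and the 101 tested genes within 5 Mb of it on chromosome 8 had a median of 0.35, with 52 higher and 20 lower. CPM here is a read count scaled to the library total with TMM factors, and counts transcript ends without division by length. The deleted parts are not given, and a 3' read outside a deletion does not check it. Library totals were 6035642 to 6617834 reads in libraries labelled DKO and 6557408 to 7098530 in WT libraries, and 3 reads corresponded to 0.423 to 0.497 CPM. Summed ESC markers reached 2765 to 2904 CPM in libraries labelled DKO and 2223 to 2388 in WT libraries. Of 9 such markers, 5 were higher and 3 lower, beside 23.9% and 24.0% of all tested genes. The 10 fibroblast markers, taken for feeder cells, summed to 1.31 to 4.06 and 2.64 to 4.67 CPM, with Lum and Fap at 0 in all 9 libraries. Mitochondrial genes took 1.77% to 2.41% of reads in libraries labelled DKO and 1.3% to 1.54% in WT libraries, and their part in the results was not tested.

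Among the tested members, Klf6, Klf9 and Klf10 were higher and Klf3, Klf8 and Klf15 were lower in libraries labelled DKO, while Klf7, Klf13 and Klf16 did not pass an adjusted p of 0.05. Thus 6 of 9 members passed (66.7%), 3 each way, against 47.8% of all tested genes, of which 23.9% were higher and 24.0% lower. Of the tested KLF genes outside the set, Klf1 (log2 fold change -1.08, edgeR adjusted p = 0.0576) and Klf11 (-0.17, 0.267) did not pass. Klf2, Klf4 and Klf5 passed and were higher. The share passing thus depends on which KLF genes are counted. Klf1 had 25 reads over the libraries labelled DKO and 46 over the WT libraries. Its 80 tested neighbours within 5 Mb on chromosome 8 had a median log2 fold change of -0.59, and their part was not tested. The libraries of the groups did not overlap for 5 members, against 37.4% of all tested genes. The median log2 fold change of the 9 members was -0.09, beside 0.01 for all tested genes, and their median absolute log2 fold change was 0.40, beside 0.26. Calls were thus common across the transcriptome, and the share among 9 genes is given as a description. In bulk RNA, fewer cells expressing a gene and less RNA per cell cannot be told apart.

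**Figure D1:**
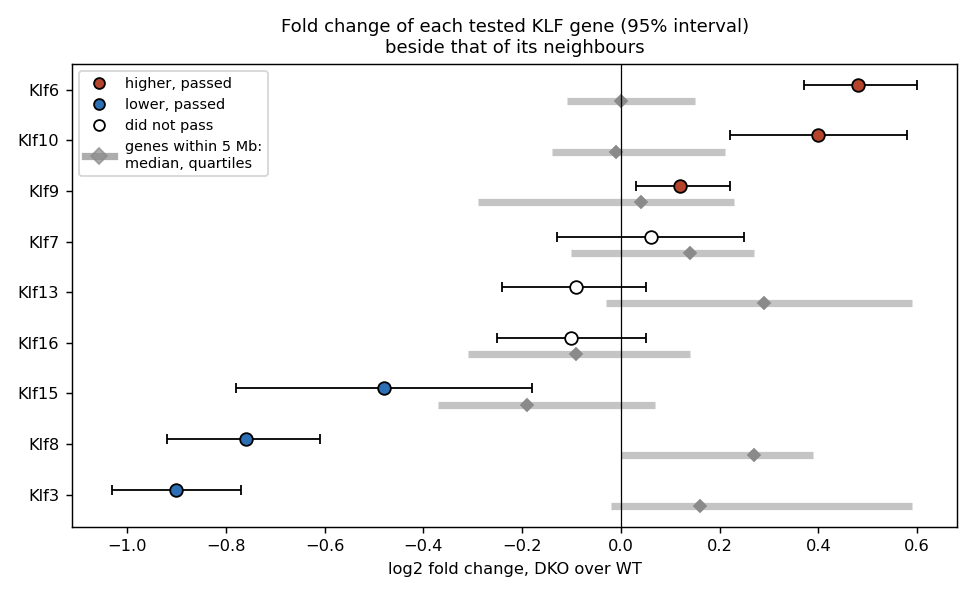
Log2 fold changes of the 9 tested members, DKO over WT, with 95% intervals from edgeR's quasi-likelihood fit, and in grey the median and quartiles of the tested genes within 5 Mb of each. Klf3 (-0.90) and Klf8 (-0.76) lie farthest below 0 and Klf6 (0.48) and Klf10 (0.40) farthest above it.

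Klf3, which encodes a CtBP-binding repressor also known as basic Krüppel-like factor, fell most. The gene (ENSMUSG00000029178) lies on the plus strand of chromosome 5 at 64803388 to 64832901 in mm10. It measured 48.3, 52.2, 55.3, 54.5 and 53.4 CPM in the 5 libraries labelled DKO, against 97.4, 97.1, 98.1 and 99.8 CPM in the 4 WT libraries. Every WT library was thus far above every library labelled DKO, and the WT values were nearly equal. The means were 52.7 ± 2.75 and 98.1 ± 1.21 CPM (SD), a log2 fold change of -0.90 (SE 0.06, 95% interval -1.03 to -0.77, edgeR adjusted p = 5.8e-14), or a fall of 46.3%. Of all tested genes, 12.3% had a log2 fold change at least as large in size. A gene on the opposite strand, Gm20033, shares 404 exonic bases with Klf3 but had 4 reads in all 9 libraries.

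Klf8, which encodes another CtBP-binding repressor, also fell. In mouse erythroid cells, Klf8 is known as a gene that KLF3 represses. Here the transcripts of both were lower, and a link between them was not tested. The gene (ENSMUSG00000041649) spans 153237466 to 153396132 on the plus strand of chromosome X. Klf8 measured 37.6, 33.6, 35.2, 36.2 and 38.7 CPM in libraries labelled DKO, against 55.9, 66.3, 61.4 and 62.6 CPM in WT libraries. The lowest WT library stood well above the highest library labelled DKO. Means were 36.2 ± 1.99 and 61.5 ± 4.28 CPM, a log2 fold change of -0.76 (SE 0.08, interval -0.92 to -0.61, edgeR adjusted p = 2.9e-10).

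Klf12, the remaining CtBP-recruiting member and known as a repressor of the AP-2alpha gene Tfap2a, was at the limit of detection. It had 1, 6, 1, 2 and 0 reads in libraries labelled DKO and 1, 3, 2 and 3 in WT libraries, or 10 and 9 reads in all. The mean levels, 0.317 ± 0.367 and 0.331 ± 0.14 CPM, lay under the 3-read floor of every library. Single libraries reached that floor in WT 2 and WT 4, with 3 reads each, and passed it in DKO 2, with 6. An exact 2-sided permutation test over all divisions of the 9 libraries gave p = 0.992, where the smallest possible is 0.00794. A difference was not detectable at this depth.

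Klf6, encoding an activator also called core promoter element-binding protein, was the member with the clearest rise. It lies on the plus strand of chromosome 13 at 5861482 to 5870394 (ENSMUSG00000000078). Its levels were 212.6, 187.1, 180.2, 205.7 and 210.4 CPM in libraries labelled DKO, against 138.2, 143.3, 146.6 and 141.6 CPM in WT libraries. All 5 libraries labelled DKO exceeded all 4 WT libraries, with DKO 3 the nearest to them. Means were 199.2 ± 14.6 and 142.4 ± 3.49 CPM, a log2 fold change of 0.48 (SE 0.06, interval 0.37 to 0.60, edgeR adjusted p = 6.0e-09), a rise of 39.9%. An equal or larger change was found for 27.6% of tested genes. 

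Klf7, the close relative of Klf6 known for its part in neuronal growth, did not pass. It measured between 28.8 and 34.8 CPM in libraries labelled DKO and between 26.2 and 33.3 CPM in WT libraries, so the groups overlapped. The log2 fold change was 0.06 with an interval of -0.13 to 0.25 (edgeR adjusted p = 0.653). Klf7 (ENSMUSG00000025959, chromosome 1, minus strand, 64029447 to 64122282) overlaps Gm26649 and Gm13748 on the opposite strand, both with 0 reads.

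Klf15, an activator known in liver and muscle for control of amino acid and glucose metabolism, was the least abundant tested member and fell. Levels were 10.1, 9.53, 7.04, 8.24 and 9.24 CPM in libraries labelled DKO, against 14.3, 12, 11.6 and 11.6 CPM in WT libraries. The gap between the groups was small, between DKO 1 and the 2 lowest WT libraries. The means of 8.84 ± 1.22 and 12.4 ± 1.31 CPM gave a log2 fold change of -0.48 (SE 0.15, interval -0.78 to -0.18, edgeR adjusted p = 0.00749), from 43 to 68 reads a library in DKO and 79 to 96 in WT. Klf15 (ENSMUSG00000030087) lies on the plus strand of chromosome 6 at 90462576 to 90475238. Within 5 Mb of it, the median log2 fold change of the 67 other tested genes was -0.19, with 6 higher and 31 lower. The whole of chromosome 6 had a median of 0.07. The part of these neighbours in the Klf15 result was not tested.

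**Figure D2:**
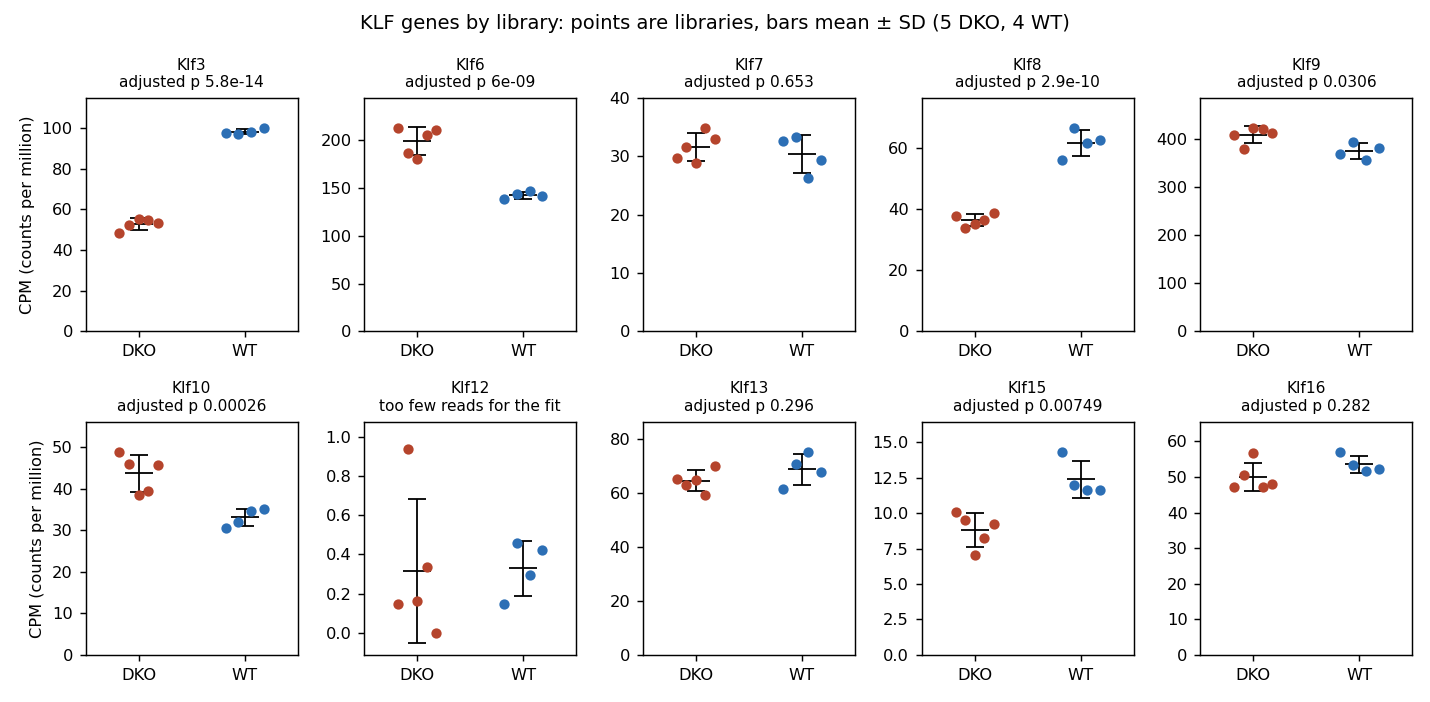
CPM (TMM-scaled) of each of the 10 members in every library, with libraries labelled DKO left of WT libraries, 1 point a library and the group mean and SD. The groups are apart for Klf3, Klf6, Klf8, Klf10 and Klf15 and overlap for the other 5.

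Among the SIN3-recruiting members, Klf10 rose. KLF10 is also called TGF-beta-inducible early gene 1. Klf10 (ENSMUSG00000037465, chromosome 15, minus strand, 38291463 to 38300706) measured 48.9, 46.1, 38.6, 39.5 and 45.9 CPM in libraries labelled DKO and 30.7, 32.1, 34.6 and 35.2 CPM in WT libraries. The groups did not overlap, with DKO 3 and DKO 4 closest to WT. Means of 43.8 ± 4.49 and 33.1 ± 2.12 CPM gave a log2 fold change of 0.40 (SE 0.09, interval 0.22 to 0.58, edgeR adjusted p = 2.6e-04).

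Klf9, which responds to glucocorticoid and thyroid hormone in other tissues, was the most abundant member. It measured 409.5, 379.8, 423, 421.7 and 413.1 CPM in libraries labelled DKO, against 369.5, 394.4, 356.8 and 382.9 CPM in WT libraries. DKO 2 lay below WT 2 and WT 4, so the groups overlapped. The means of 409.4 ± 17.5 and 375.9 ± 16.3 CPM differed by a log2 fold change of 0.12 (SE 0.05, interval 0.03 to 0.22, edgeR adjusted p = 0.0306), a difference of 8.9%. The call was lost without DKO 3, DKO 4, DKO 5, WT 1 or WT 3 (adjusted p = 0.052, 0.0669, 0.0628, 0.0906 and 0.123). It was also lost without DKO 4 and DKO 5 together (0.136), and over all alternatives the adjusted p ran from 0.014 to 0.136. Klf9 (ENSMUSG00000033863) lies on the plus strand of chromosome 19 at 23141226 to 23168134.

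Klf13 and Klf16, encoding SIN3-binding repressors, did not pass. Klf13, whose product also activates Ccl5 in T cells, ranged from 59.2 to 70 CPM in libraries labelled DKO and from 61.3 to 75 in WT libraries (log2 fold change -0.09, interval -0.24 to 0.05, edgeR adjusted p = 0.296). Klf16 ranged from 47.1 to 56.6 CPM and from 51.6 to 57 CPM (log2 fold change -0.10, interval -0.25 to 0.05, edgeR adjusted p = 0.282). Klf13 (ENSMUSG00000052040) is on chromosome 7, minus strand, 63886351 to 63938915, and Klf16 (ENSMUSG00000035397) on chromosome 10, minus strand, 80567124 to 80577321.

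The spread of the members among replicates was set beside what counting alone gives. For Klf3 the coefficient of variation was 5.21% in libraries labelled DKO and 1.23% in WT libraries, where Poisson counting alone would give 5.49% and 3.87%. For Klf15, with few reads, it was 13.8% and 10.6%, beside 13.4% and 10.9% from counting. Klf6 varied more than counting in libraries labelled DKO, at 7.34% beside 2.82%, and less than counting in WT libraries, at 2.45% beside 3.21%. Klf9 varied more in both groups (4.28% and 4.34%, beside 1.97% and 1.98%).

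The order of the levels shifted. In libraries labelled DKO, Klf9 stood highest, then Klf6 and Klf13, followed by Klf3, Klf16, Klf10, Klf8 and Klf7, then Klf15 and Klf12. From Klf3 to Klf7, each gene's range overlapped that of the next. In WT libraries the order was Klf9, Klf6 and Klf3, followed by Klf13, Klf8 and Klf16, then Klf10 and Klf7, then Klf15 and Klf12. There, Klf8 overlapped both Klf13 and Klf16, which did not overlap each other, and Klf10 overlapped Klf7. Klf13 to Klf3 reads stood at 1.22 (1.09 to 1.35 over libraries) in libraries labelled DKO and at 0.699 (0.629 to 0.764) in WT libraries. Klf10 to Klf8 reads stood at 1.21 (1.09 to 1.37) and at 0.54 (0.484 to 0.563). Both pairs thus changed order, as ratios of transcript ends. In WT libraries, Klf9 lay at percentile 96.2 of tested genes by CPM, Klf6 at 87.4, Klf3 at 82.1, Klf8 at 73.0 and Klf15 at 37.1.

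Summed over the 10 members, the level was nearly the same in both groups: 896.4 ± 26.2 CPM (854.3 to 921.7) in libraries labelled DKO and 876.3 ± 21.0 CPM (857.1 to 902.9) in WT libraries. The sum was not tested, and its ranges overlapped. Within it, Klf3 took 5.89% in libraries labelled DKO and 11.2% in WT libraries, and Klf8 4.04% and 7.02%. Klf6 took 22.2% and 16.3%, and Klf9 45.7% and 42.9%. Klf2, Klf4 and Klf5 together summed to 2600 ± 204 CPM in libraries labelled DKO and 1468 ± 51.1 in WT libraries. The 10 members therefore held 25.6% ± 1.71 of the summed CPM of all KLF genes in libraries labelled DKO, against 37.1% ± 1.32 in WT libraries.

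**Figure D3:**
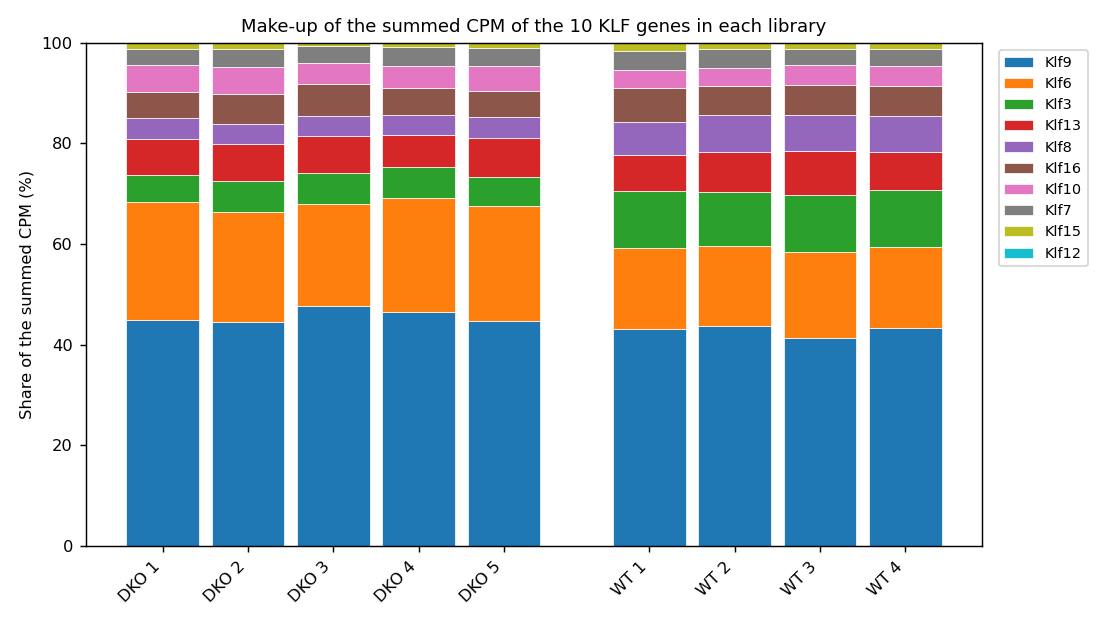
Share (%) of the summed CPM of the 10 members taken by each member in every library, with libraries labelled DKO left of WT libraries. Klf3, Klf8 and Klf15 fill less, and Klf6, Klf9 and Klf10 more, of each library labelled DKO than of each WT library.

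Genes near Klf3 and Klf8 had medians above 0, opposite in sign to those members. The 32 tested genes within 5 Mb of Klf3 had a median log2 fold change of 0.16, with 13 higher and 4 lower. The 39 near Klf8 had 0.27, with 16 higher and 3 lower. Of all tested genes, 23.9% were higher and 24.0% lower. The whole of chromosome 5, which holds Klf3, had a median of -0.01, and chromosome X, which holds Klf8, 0.10. Around Klf6 the median over 15 genes was -0.00, with 3 higher and 3 lower, and around Klf10 it was -0.01 over 31 genes. For Klf13 and Klf16, which did not pass, it was 0.29 over 29 genes and -0.09 over 162. Windows of 2 and 10 Mb gave 0.14 and 0.16 for Klf3, 0.30 and 0.25 for Klf8, and -0.28 and -0.27 for Klf15. They moved the median more for Klf13 (0.02 over 11 genes and 0.23 over 39) and for Klf6 (-0.13 over 4 genes and 0.07 over 32).

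**Figure D4:**
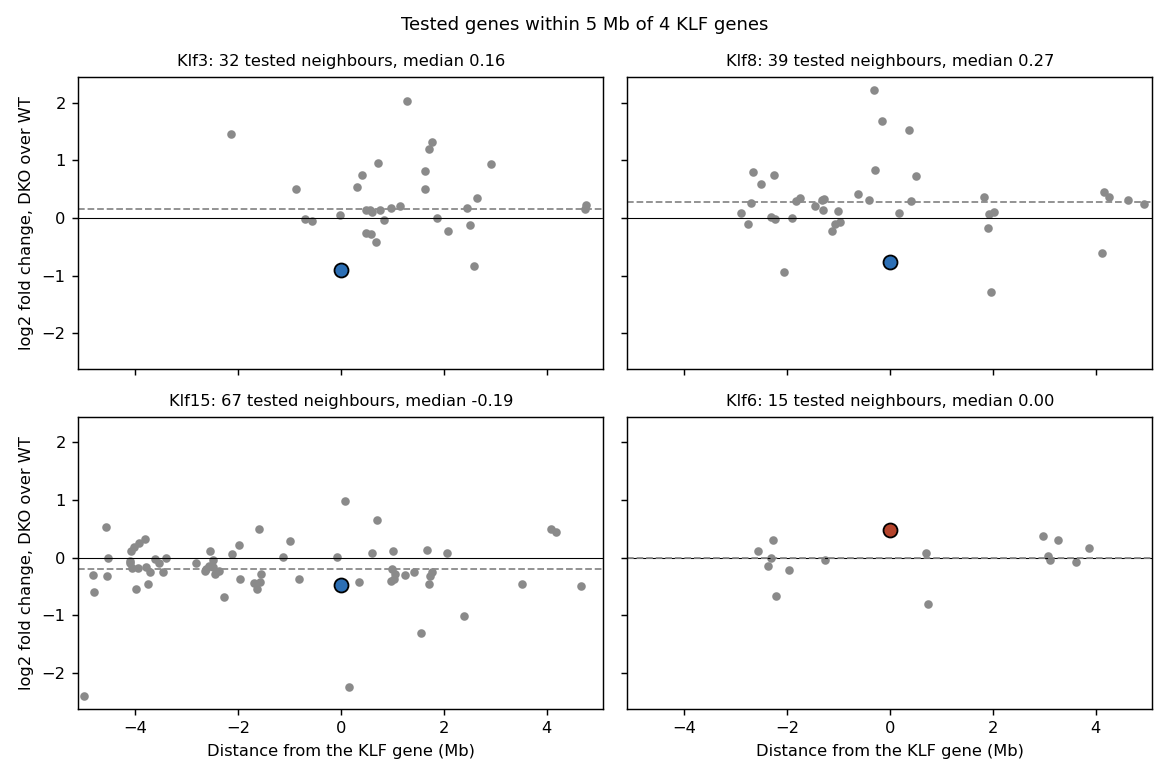
Log2 fold changes (DKO over WT) of tested genes within 5 Mb of Klf3, Klf8, Klf15 and Klf6 (large points), by distance from the gene in Mb, with the neighbours' median as a dashed line. Klf3 (-0.90) and Klf8 (-0.76) lie below medians of 0.16 and 0.27, and Klf15 (-0.48) lies among neighbours with a median of -0.19.

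By the naming rule, the genes most like Klf6 over the 9 libraries, by Pearson r of log2 CPM, were Rab18 (0.994), Acss1 (0.992) and Lancl1 (0.992). Those most like Klf3 were Liph (0.999), Crxos (0.998) and Gabarapl2 (0.998). These r values are descriptions that rest largely on the difference between groups. Within libraries labelled DKO, r with Klf6 was 0.95, 0.99 and 0.97, and r with Klf3 was 0.94, 0.93 and 0.89, in the same order. Within WT libraries it was 0.64, 0.66 and 0.89 with Klf6, and 0.52, 0.79 and 0.75 with Klf3. These values come from few libraries and from genes picked as the most alike. Of 8077 genes compared, 819 reached 0.9 with Klf6 and 861 with Klf3.

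Genes of the pathways around the members were then described by list. Each list count stands beside 23.9% higher and 24.0% lower over all tested genes, and is a description only. Of the 10 tested CtBP corepressors and partners, 4 were higher and 3 lower, with a median log2 fold change of 0.10. Ctbp2 (0.37, adjusted p = 2.0e-04), a corepressor, Cdyl (0.93, 1.6e-11), a chromodomain partner, Kdm1a (0.22, 1.9e-04), a histone demethylase, and Zeb1 (0.37, 0.0126), an E-box repressor, rose. Zfp217 (-0.37, 1.0e-04), a zinc finger partner, and the histone methyltransferases Ehmt2 (-0.27, 0.00527) and Ehmt1 (-0.16, 0.0179) fell. Ctbp1 (-0.08, 0.265) and the CoREST gene Rcor1 (0.01, 0.891) did not pass. The Zeb1 call was lost without WT 3 (0.0828), and that of Ehmt1 without DKO 4 (0.0637) or WT 2 (0.0984). These p-values are edgeR's, adjusted over all tested genes, as are those of the lists that follow.

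Of the 17 genes of the SIN3 and histone deacetylase complex, 4 were higher and 4 lower, with a median of -0.03. These counts are near the shares over all tested genes (23.9% and 24.0%). Sin3b (-0.38, 3.1e-08), a scaffold of the complex, fell, as did Hdac2 (-0.16, 0.0102), Suds3 (-0.23, 0.0017) and Arid4a (-0.22, 0.0174). Sap30 (0.32, 5.1e-05), Ing2 (0.37, 6.7e-05), Ing1 (0.42, 1.2e-04) and Arid4b (0.27, 0.00117), all subunits, rose. Rbbp4 (0.09, 0.0702) and Rbbp7 (-0.06, 0.272), histone-binding subunits, did not pass. Sin3b, Sap30, Ing1 and Ing2 lie on chromosome 8, where the neighbours within 5 Mb had medians of 0.35, 0.32, 0.49 and 0.52, and their part was not tested. Off chromosomes 6 and 8, 1 of 13 genes was higher and 3 lower. The Arid4a call was lost without DKO 5 (0.0576), WT 2 (0.0792) or WT 3 (0.0548).

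Of 5 acetyltransferase coactivators, 3 were higher and 0 lower: Crebbp (0.40, 5.7e-07), Kat2b (0.35, 3.2e-05) and Ep300 (0.29, 1.3e-04). Kat2a (0.10, 0.181) and Kat5 (-0.12, 0.319) did not pass. Of 11 other tested KLF and SP genes, 7 were higher and 1 lower. Beside Klf2, Klf4 and Klf5, these were Sp2 (0.57, 2.4e-08), Sp3 (0.20, 0.0189), Sp4 (0.88, 1.6e-04) and Sp5 (0.54, 0.00916), while Sp6 fell (-1.11, 1.4e-05). Sp1 (0.06, 0.279) did not pass. Without DKO 2, WT 2 or WT 4, the Sp3 call was lost (0.083, 0.067 and 0.0707).

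Genes reported in other cells as regulated by a member moved in both directions, with 4 of 10 tested higher and 5 lower (median -0.26). Ccnd1, the cyclin D1 gene that KLF8 activates in other cells, averaged 25.9 ± 3.1 CPM in libraries labelled DKO and 363.2 ± 12 in WT libraries (log2 fold change -3.81, 2.1e-31). Tfap2a, described as a KLF12 target, averaged 4.34 ± 1.16 and 26.2 ± 2.7 CPM (-2.59, 5.7e-16). Cdh1, the E-cadherin gene that KLF8 represses in other cells, fell too (-0.97, 1.3e-12), on chromosome 8, where its 94 neighbours had a median of -0.63. Lgals3 (-1.16, 1.9e-05), which KLF3 represses in other cells, and Bcat2 (-0.46, 6.6e-06), an amino acid enzyme gene tied to KLF15, fell. Smad7 (1.06, 1.0e-16), an inhibitory SMAD gene, Cdkn1a (0.70, 1.7e-13), encoding p21 and activated by KLF6 in other cells, Tgfbr1 (0.48, 0.0021) and Eng (0.37, 0.0194) rose. Eng lost its call without DKO 3 (0.0526) or WT 2 (0.124). Prodh (-0.07, 0.835) did not pass, Slc2a4 was not tested, and Ccl5 was at 0 in all libraries. Directions of these genes say nothing on their own about which member, if any, acts on them.

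Of 8 tested glucocorticoid receptor and response genes, 3 were higher and 2 lower. The receptor gene Nr3c1 (0.81, 4.2e-05), Ddit4 (0.94, 1.5e-14) and Per1 (0.32, 0.00593) rose, and Fkbp5 (-0.18, 0.00691) and Sgk1 (-0.18, 0.0279) fell. The Sgk1 call was lost without DKO 1 (0.105), DKO 4 (0.0512), DKO 5 (0.0513), WT 2 (0.0558) or WT 4 (0.13). Of 13 tested TGF-beta and activin genes, 5 were higher and 3 lower. Smad7, Tgfbr1, the receptor gene Acvr1b (0.41, 0.00506), and Ski (0.27, 0.00445) and Skil (0.33, 6.6e-04), encoding SMAD repressors, rose. Among those that fell was Lefty2 (-1.54, 1.2e-04), a Nodal antagonist gene. Tgif1 (-0.04, 0.564) and Smad4 (-0.11, 0.169) did not pass.

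**Figure D5:**
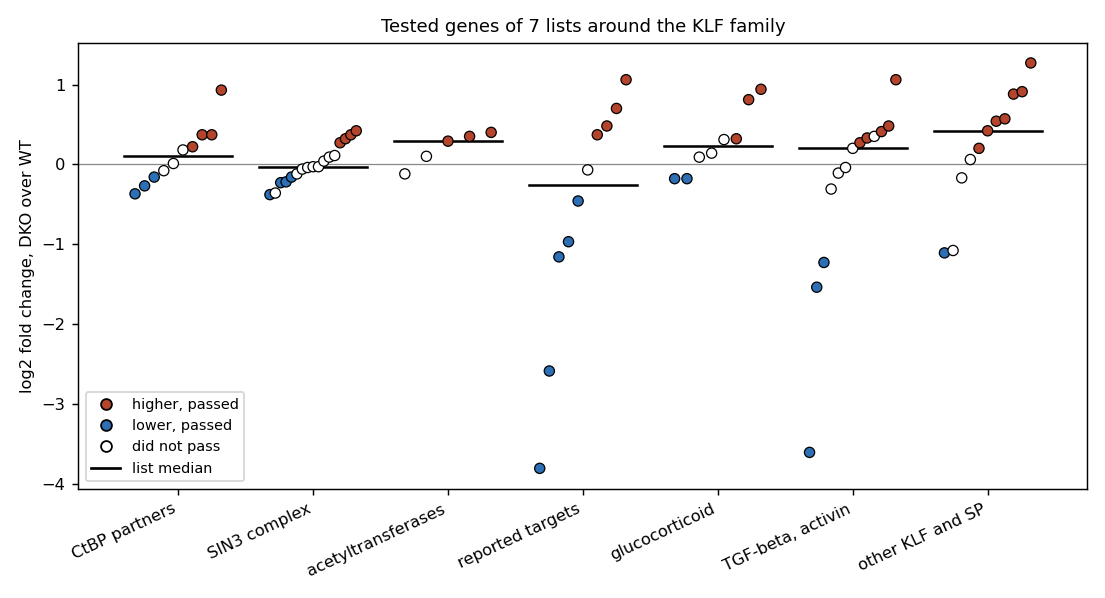
Log2 fold changes (DKO over WT) of the tested genes of 7 lists, 1 point a gene, filled where it passed an adjusted p of 0.05, with each list's median as a bar. Medians run from -0.26 for reported targets to 0.42 for the other KLF and SP genes, and the median of all tested genes is 0.01.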

How the data were processed

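The table that the authors deposited holds raw exon counts, as whole numbers, for each gene in 9 libraries, and every column was used. Per the labels' protocols, 600 ng of Trizol-extracted RNA entered the QuantSeq forward kit, which reads 3' ends. Tools and build, per the submitters' processing notes, were mm10 and cutadapt, STAR, featureCounts and DESeq2. No source used here gives versions, the strand setting or the handling of multi-mapped reads, so reads of overlapping genes may be shared. Gene identifiers were matched to GENCODE mouse release M21 on the same build (52403 of 52550).

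Genes were filtered with filterByExpr by group, scaled by TMM and tested on all 9 libraries with edgeR 4.0.16 (robust quasi-likelihood fit) in R 4.3.3. P-values were Benjamini-Hochberg adjusted over all 11893 tested genes, and an adjusted p under 0.05 passed. Folds are log2 of DKO over WT. Per-library values are CPM on TMM-scaled totals. The single value of Klf12 was compared by an exact 2-sided permutation test. No pair of libraries within a group was alike within sampling noise (chi-square per degree of freedom 2.22 to 4.98 over 16 pairs). The script was tested on simulated data. Intervals and floors cover counting error or sample spread only, since no molecular identifiers were described.

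All members were named. Of each list, the 4 passing genes of lowest adjusted p and the 2 most abundant not passing, from 50 CPM up, were named, and 3 genes of at least 10 CPM most like Klf3 and like Klf6. Further list genes were named because 5 or fewer moved one way, or as KLF genes outside the set, after their values were seen. A few list genes are not reported here by name. The members and lists were chosen with earlier results of these data known. Alternatives were 18 fits with other scalings, filters, tests (DESeq2 1.42.0, limma-voom 3.58.1), the replicate block and libraries left out, 1 at a time or DKO 4 with DKO 5. Leaving out libraries and another scaling for Klf12, and list counts off chromosomes 6 and 8, were added after seeing the data.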

Additional observations from a re-analysis of the deposited data

Results flagged for a closer look

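Klf15 in WT 1, at 14.3 CPM, lay apart from the other 3 WT libraries, at 11.6 to 12 CPM, with a gap of 0.841 of the group's range. Of 24 groups of libraries examined in this way it was the 1 that stood apart, and chance alone sets apart about 1 in 20. Klf15 passed in every one of the 18 alternative fits, with WT 1 left out among them, at adjusted p-values from 0.00525 to 0.0402.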

How the results depend on the processing

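Over 18 alternatives, 4943 to 6075 genes were called, against 5689, and 5 or 6 members. The calls of Klf3, Klf6, Klf8, Klf10 and Klf15 held in all of them, and that of Klf9 was lost in 6, as given with its values. Of 77 genes refitted, members, list genes and the genes most like Klf3 or Klf6, 65 held in all alternatives, 9 lost their call in at least 1 and 3 changed sign. The 3 that changed sign had not passed: Klf7 reached -0.01 without DKO 4 and DKO 5 (leave-one-out -0.01 to 0.10), Rcor1 ranged from -0.02 to 0.04 over leave-one-out fits, and Tgif1 was 0.01 without DKO 4 and DKO 5. Without that pair, Ehmt1 (adjusted p = 0.139), Arid4a (0.163), Sgk1 (0.0972), Fkbp5 (0.0752) and Zfp42 (0.071) lost their call, as did Klf9. The Klf12 difference ranged from -0.168 to 0.066 CPM over leave-one-out tests. The cause was not tested. Same-numbered libraries correlated at 0.0147 to 0.0639 over 4 pairs, and differently numbered ones at -0.0493 to 0.051 over 16. These ranges overlap and do not settle whether a number marks something shared. The labels do not say what a number shares, so the main fit did not pair the libraries. A fit with the replicate block called 5497 genes and changed no member's call. At 6035642 reads or more a library, depth limits Klf12 and, less so, Klf15.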
